A study of Drosophila melanogaster with 3 samples.

Results

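CBP peaks lay several to a gene at 143 of the 2973 genes that were nearest to a CBP peak in S2 cells. A gene was taken when it was the gene with the nearest start, its listed 5′ end, for 3 or more different CBP peaks, and these 143 genes make up 4.81% of the genes with a CBP peak. They held 515 of the 3685 CBP peaks that were assigned to a gene. The genes were chosen by their number of CBP peaks, so that number and the places of those peaks are a description, and the SMARCAD1 peaks are the readout that the choice did not use. Just inside the threshold were 91 genes with 3 peaks and just outside it 340 genes with 2. A further 37 genes had 4 peaks, 6 had 5, 5 had 6, and the 4 genes with most had 7, 8, 9 and 10.

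ChIP-seq was made on S2 cells, a line of Drosophila melanogaster kept in culture, with chromatin precipitated with anti-SMARCAD1 (ASNA) or with anti-CBP, plus input DNA, for which no table was used here. All of these cells had received the control treatment, dsRNA of EGFP for 6 h at 26 °C, and were grown on for 72 h. With 1 library for each antibody, no value has a replicate and no test was made between groups. Shares carry Wilson 95% intervals, which cover counting error only and treat genes or peaks as independent, although peaks of 1 gene are not.

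CBP, encoded by nejire in the fly, is a histone acetyltransferase that transcription factors bring to promoters and enhancers, where it acts as a co-activator. SMARCAD1, whose fly gene is also called Etl1, is an ATP-dependent remodeller of the Snf2 family. A gene under the control of several enhancers can carry several separate sites of a co-activator, upstream of its start or in its introns.

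The tables list 3762 CBP peaks and 3211 SMARCAD1 peaks by position and width, with no read count, score or P value, so the depth of the libraries is unknown and no peak could be ranked by strength. Positions are given as in the tables. The methods name dm6, but of the member genes matched by name, the start or the end was that of Release 6 for 7 of 18 on 2L, 3 of 27 on 3L, and 0 of 20 on 2R, 0 of 26 on 3R and 0 of 44 on X, so a position may not be one of dm6.

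The genes with the most CBP peaks included several that code for transcription factors. The gene ct (X, 7503181 to 7570056, plus strand), which codes for the homeodomain factor Cut, had 10 CBP peaks. Their midpoints lay at -4490, -2975 and -982 bp before the start and at 8013, 14103, 18211, 23854, 26503, 31859 and 41673 bp inside the gene, and no CBP peak covered the start. The 6 SMARCAD1 peaks of ct were all inside it, at 18270, 22703, 27612, 30131, 32181 and 41736 bp. All of the CBP peaks from 18211 bp onwards overlapped a SMARCAD1 peak by 1 bp or more, and none of the 5 before that did, so the shared and unshared peaks of ct formed separate blocks along the gene.

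The gene dm (X, 3267216 to 3280049, plus strand), which codes for the growth regulator Myc, had 9 CBP peaks and 7 SMARCAD1 peaks, the most SMARCAD1 peaks of any member. Of its CBP peaks, 5 were upstream, at -19701, -12270, -10356, -8458 and -3418 bp, and each overlapped a SMARCAD1 peak. The CBP peak over the start, with its midpoint at 401 bp, and that at 4474 bp did not, and those at 6318 and 8588 bp did. A SMARCAD1 peak of 6928 bp across the end of the gene, at 15446 bp, overlapped no CBP peak. At dm all of the upstream CBP peaks were thus shared, and the unshared ones were those over and next after the start. Mnt (X), which codes for a repressor that competes with Myc for their common partner Max, had 5 CBP peaks, all inside the gene, and 4 of them, at 2470, 5717, 16772 and 23726 bp, had a SMARCAD1 peak with its midpoint within 200 bp.

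CHES-1-like (X, 7577491 to 7598851, minus strand), which codes for a forkhead factor, had 8 CBP peaks between -4863 and 12758 bp, 4 of them shared. The 4 unshared peaks were those at -1287, 1133, 2145 and 3307 bp around and after the start. The start of ct and that of CHES-1-like were 95670 bp apart. The gene pnt (3R, 19116826 to 19171884, minus strand), which codes for an ETS factor of the EGFR and Ras pathway, had 6 CBP peaks. Those at 16456, 19780 and 24279 bp inside the gene were shared, and those at -936, 3731 and 6508 bp were not. In ct, dm, CHES-1-like and pnt alike, the peak over or next to the start was among the unshared ones. That did not hold for the members together, as the shares at starts given below show.

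The other members with 6 or more CBP peaks had from none to 4 of them shared. CG4434 (3R), called bb8 in RefSeq, had 7 CBP peaks, all upstream from -27196 to -3045 bp, and only that at -3045 bp was shared. CG32193 (3L) had 6 CBP peaks from -14222 to 19560 bp and no SMARCAD1 peak. The gene ras (X), which is raspberry and codes for an IMP dehydrogenase, not the Ras oncogene, had 6 upstream peaks. Those at -8752 and -1935 bp were shared, and all 6 lay on another gene, CG32676. CG6175 (3L), called Dyro in RefSeq, had 6 peaks from -2017 to 10325 bp, and those at 2445 and 4723 bp were shared. The start of snoRNA:Me28S-A30 (3L), a gene of 101 bp, was the nearest to 6 CBP peaks, 4 of them shared. Of the 15 genes with 5 or more CBP peaks, none had every one of them shared (upper Wilson limit 20.4%). Over all genes with a CBP peak this share was 49.3%. It was 40% with 2 CBP peaks, 24.2% with 3 and 18.9% with 4. With more peaks to a gene, more of them must be shared, so nothing is read from the lack of such genes.

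**Figure D1:**
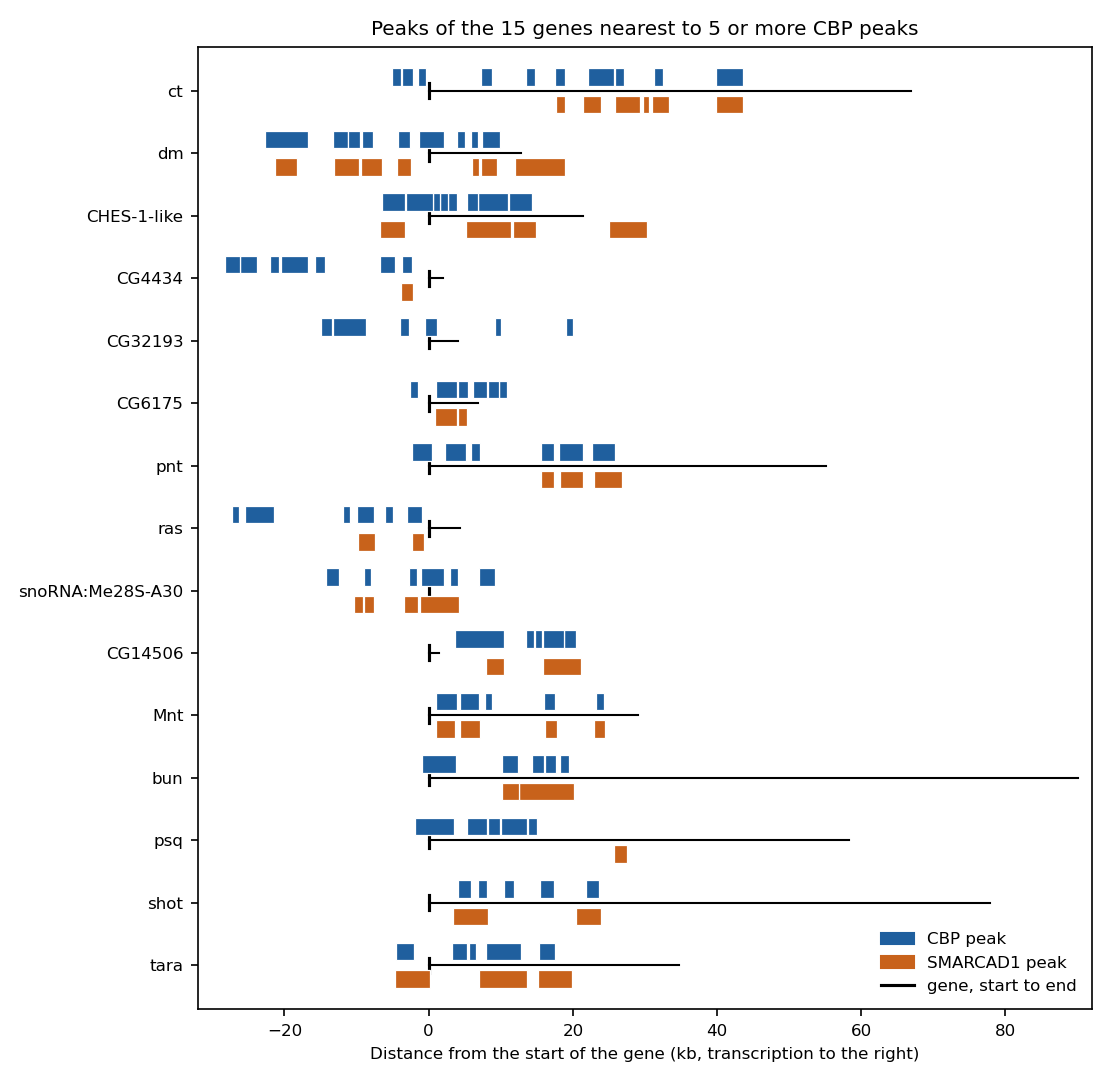
Positions of the CBP peaks (blue, above the line) and SMARCAD1 peaks (orange, below it) at the 15 genes nearest to 5 or more CBP peaks, with the distance from the start of the gene in kb on the horizontal axis, transcription to the right, and 1 row per gene. Each block spans the width of a peak, and the line spans the gene. In ct the 5 shared CBP peaks all lie to the right of the 5 unshared ones, and CG32193 has no SMARCAD1 peak.

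The 143 genes had SMARCAD1 peaks more often than the other genes with a CBP peak. At least 1 SMARCAD1 peak was nearest to 124 of the 143 genes, 86.7% (80.2 to 91.3%), and to 1553 of the 2830 genes nearest to 1 or 2 CBP peaks, 54.9% (53.0 to 56.7%), beside 56.4% over all 2973 genes. Of the members, 44 were nearest to 3 or more SMARCAD1 peaks, 30.8% (23.8 to 38.8%), against 43 of the other genes, 1.52% (1.13 to 2.04%), beside 2.93% over all. The intervals did not overlap in either comparison. The peaks of both antibodies were assigned with the same list of gene starts.

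The share of genes with a SMARCAD1 peak was higher in each class of more CBP peaks. It was 52.5% (50.5 to 54.5%) of genes with 1 CBP peak, 72.4% (67.4 to 76.8%) with 2, 84.6% (75.8 to 90.6%) with 3, 89.2% (75.3 to 95.7%) with 4 and 93.3% (70.2 to 98.8%) with 5 or more. The last 3 classes did not differ beyond their intervals. The share with 3 or more SMARCAD1 peaks was 0.763%, 7.06%, 24.2%, 40.5% and 46.7% in the same classes. A gene with more CBP peaks has more places where a SMARCAD1 peak can overlap one of them. Per CBP peak, sharing was alike, at 53.6% at the members and 52.9% at the other genes. How much of the rise comes from the number of peaks alone was not tested.

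Within each class of gene length the members again had the higher share, and in 3 of the 6 classes the intervals did not overlap. Of genes under 2 kb, 89.3% (72.8 to 96.3%) of 28 members and 52.8% (49.8 to 55.8%) of 1056 other genes were nearest to a SMARCAD1 peak. The shares were 87% (67.9 to 95.5%) of 23 members and 55.8% (49.7 to 61.7%) of 258 other genes from 10 to 20 kb, and 92.3% (79.7 to 97.3%) of 39 members and 54.8% (47 to 62.4%) of 157 other genes from 20 to 50 kb. The intervals overlapped in the other 3 classes. There the shares were 75% (56.6 to 87.3%) of 28 members and 55.2% (51.8 to 58.5%) of 846 other genes from 2 to 5 kb, 83.3% (55.2 to 95.3%) of 12 members and 58.4% (53.8 to 62.8%) of 454 other genes from 5 to 10 kb, and 92.3% (66.7 to 98.6%) of 13 members and 55.9% (43.3 to 67.8%) of 59 other genes of 50 kb or more. Among the other genes the share varied little with length, from 52.8 to 58.4%. The classes are of length only, and by the rule the members still had more CBP peaks per gene in each.

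**Figure D2:**
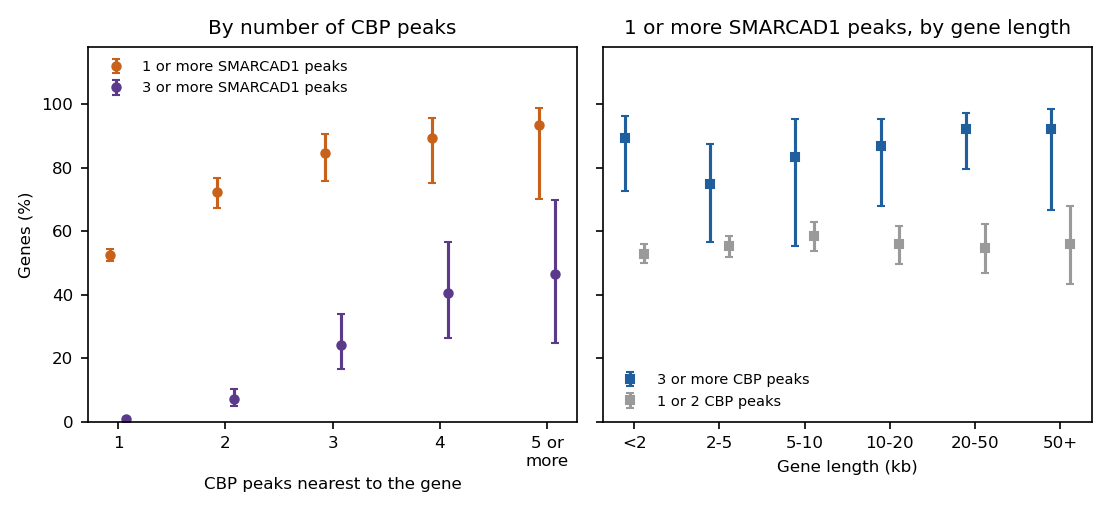
Left, the percentage of genes nearest to 1 or more (orange) and to 3 or more (purple) SMARCAD1 peaks, by the number of CBP peaks nearest to the gene. Right, the percentage nearest to 1 or more SMARCAD1 peaks by gene length in kb, for genes with 3 or more CBP peaks (blue) and genes with 1 or 2 (grey). Points are shares and bars are Wilson 95% intervals, and the blue points lie between 75 and 92.3%, above the grey points at 52.8 to 58.4% in all 6 classes.

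Numbers of SMARCAD1 peaks varied widely among the members. No SMARCAD1 peak was nearest to 19 of them, while 38 had 1, 42 had 2, 26 had 3, 12 had 4, 3 had 5, 2 had 6 and 1 had 7. Fewer SMARCAD1 than CBP peaks, but at least 1, were found at 95 genes, as many at 19 and more at 10. KrT95D (3R) was among the last, with 4 CBP and 6 SMARCAD1 peaks. Its CBP peaks at 140, 1916 and 16392 bp were shared, and its SMARCAD1 peaks at 4100, 7936 and 11392 bp overlapped no CBP peak. NFAT (X), a transcription factor gene, and CG14801 (X), called prage in RefSeq, each had 4 CBP peaks and 5 SMARCAD1 peaks, and all of their CBP peaks were shared. The same counts held for CG30497 (2R). In all, 30 members had a SMARCAD1 peak that overlapped no CBP peak. Per SMARCAD1 peak, overlap with a CBP peak was alike, at 86.9% at the members and 83.5% at the other genes.

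Of the genes nearest to no SMARCAD1 peak, those with the most CBP peaks were CG32193 with 6, then CG13235, CG4631, Pdp1 and Su(Tpl) with 4 each. The other 14 had 3 each, among them CG11883. Not all of these genes were without SMARCAD1. Counted by any entry that named the gene, Pdp1, CG11883, NijA and Reck had 1 SMARCAD1 peak each, loco had 2 and l(1)dd4 had 3. Pdp1 (3L), which codes for a bZIP factor of the circadian clock, had CBP peaks at 1762, 8354, 11352 and 31444 bp, that at 1762 bp being 7983 bp wide and covering the start. Su(Tpl) codes for the ELL elongation factor. All 4 peaks of CG13235 lay on another gene, luna, and all 4 of CG4631 on CG42389. The gene psq (2R), which codes for the BTB factor Pipsqueak, came close to these. It had 5 CBP peaks, from 866 to 14402 bp, and its only SMARCAD1 peak, at 26609 bp, overlapped none of them.

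Taken peak by peak, the CBP peaks of the members were shared with SMARCAD1 about as often as other CBP peaks. Of their 515 peaks, 276 overlapped a SMARCAD1 peak by 1 bp or more, 53.6% (49.3 to 57.9%), against 1676 of 3170 peaks of the other genes, 52.9% (51.1 to 54.6%), beside 53% over all. Thus the difference between genes was not seen between peaks. The members differed among themselves: 22 had no CBP peak shared, 34 had 1, 36 had 2 and 51 had 3 or more. At least 1 CBP peak was shared at 84.6% of the members, 54.4% of the other genes and 55.9% over all. Every CBP peak was shared at 29 members, 20.3% (14.5 to 27.6%), against 50.8% of the other genes and 49.3% over all. By number of CBP peaks, this last share was 52.2% with 1, 40% with 2 and 24.2% with 3. A gene with more CBP peaks needs more of them shared to count here. The reverse share was 245 of 282 SMARCAD1 peaks of the members, 86.9% (82.4 to 90.3%), and 1546 of 1852 SMARCAD1 peaks of the other genes, 83.5% (81.7 to 85.1%).

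Under stricter definitions of a shared peak the members' share was the lower one. Both peaks overlapped by at least 50% of their width at 37.9% (33.8 to 42.1%) of the members' CBP peaks and 43.3% (41.6 to 45.0%) of the others. The midpoints were within 200 bp of each other at 23.9% (20.4 to 27.8%) of the members' CBP peaks and 32.1% (30.5 to 33.8%) of the others. The intervals did not overlap in the second of these. For peaks off the start, the shares with midpoints within 200 bp were 22.9% (19.2 to 27.0%) of 433 in the members and 30.0% (27.3 to 33.0%) of 1005 in the other genes. For peaks over the start they were 29.3% (20.5 to 39.9%) of 82 in the members and 33.1% (31.2 to 35.1%) of 2165 in the other genes. CBP peaks had a median width of 1663 bp at the members and 1489 bp at the other genes. SMARCAD1 peaks had a median width of 2243 bp at the members and 1995 bp at the other genes, and the part of width in these shares was not tested.

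**Figure D3:**
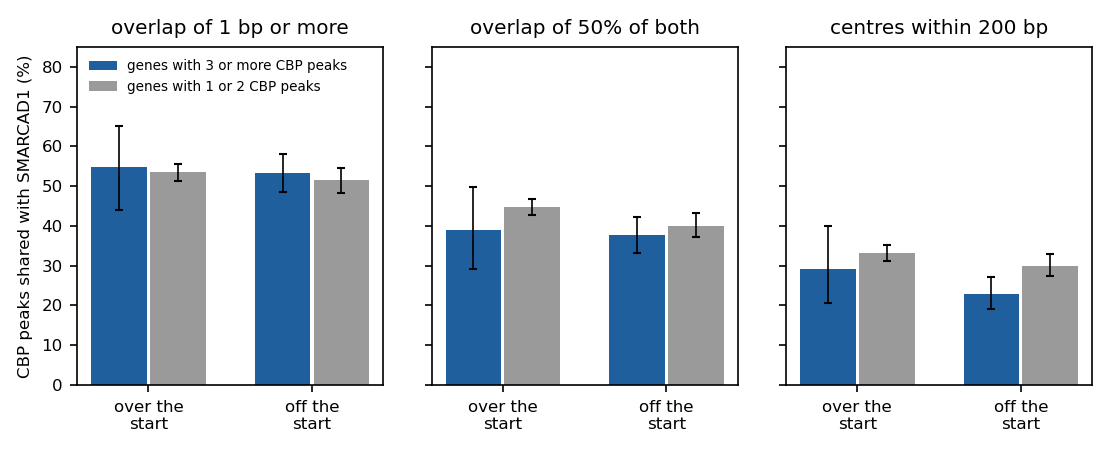
Percentage of CBP peaks shared with SMARCAD1 at genes with 3 or more CBP peaks (blue) and at genes with 1 or 2 (grey), for peaks over and off the start of the gene, under 3 definitions of a shared peak. Bars are shares and whiskers are Wilson 95% intervals. With an overlap of 1 bp the 4 shares lie between 51.4 and 54.9%, and with midpoints within 200 bp the blue bars are at 29.3 and 22.9% and the grey bars at 33.1 and 30.0%.

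Most CBP peaks of the members lay away from the start of the gene. A gene has 1 listed start, so 3 or more peaks limit the share of peaks that can cover it. Inside the gene were 219 of the 515 peaks, 42.5%, against 13.1% of the peaks of other genes. Upstream were 126 of the members' peaks, 24.5%, against 9.87% at other genes, and downstream were 71 of the members' peaks, 13.8%, against 4.92% at other genes. The start was covered by 82 peaks, 2 of which spanned the whole gene, and the end alone by 17. Counted by gene, a CBP peak covered the start of 82 of the 143 members, 57.3% (49.1 to 65.2%), and of 76.5% (74.9 to 78.0%) of the other genes. A SMARCAD1 peak covered the start of 36.4% (28.9 to 44.5%) of the members and 39.8% (38.0 to 41.6%) of the other genes, which did not differ beyond the intervals. The SMARCAD1 peaks of the members were placed much like their CBP peaks, with 46.8% of 282 inside the gene, against 16.0% of the 1852 SMARCAD1 peaks of the other genes. The class over the start alone held 17.7% of the members' SMARCAD1 peaks and 55.3% of those of the other genes.

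Peaks in different places were not equally shared. Inside the gene, 59.8% (53.2 to 66.1%) of the members' CBP peaks overlapped a SMARCAD1 peak, against 52.5% (47.7 to 57.3%) at the other genes. Upstream it was 46.8% (38.3 to 55.5%) at the members against 45.7% (40.3 to 51.2%) at the other genes, and downstream 40.8% (30.2 to 52.5%) at the members against 50.6% (42.9 to 58.4%) at the other genes. None of these differences exceeded the intervals. Over the start it was 54.9% (44.1 to 65.2%) of the members' peaks, so peaks at starts were not shared less often than the rest of the members' peaks, at 53.3% (48.6 to 58.0%).

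The members fell into 3 groups by the place of their CBP peaks. At 68 genes every peak lay on the gene, covering the start or the end or lying inside. At 43 some did, and at 32 none did. A frequent arrangement was 1 peak over the start with the rest inside, found at 47 genes. Examples were zip (2R), which codes for the heavy chain of nonmuscle myosin II, with peaks at -368, 6050, 9984 and 12124 bp, and CG5060 (3R), called cic in RefSeq, which codes for the HMG-box repressor Capicua, with peaks at 427, 4794, 7996 and 12028 bp. All of the peaks of cic and all but that at 6050 bp of zip were shared. At 16 genes every peak was inside the gene, at 14 every peak was upstream and at 12 every peak was downstream.

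Sharing with SMARCAD1 was lowest at the genes that carried no CBP peak on themselves. A SMARCAD1 peak was nearest to 61 of the 68 genes with every peak on the gene, 89.7% (80.2 to 94.9%), to 38 of the 43 with some, 88.4% (75.5 to 94.9%), and to 25 of the 32 with none, 78.1% (61.2 to 89.0%), so these shares did not differ beyond the intervals. Of the CBP peaks, 59.4% (53.0 to 65.5%) were shared at the first group, 55.7% (48.1 to 63.0%) at the second and 38.6% (30.2 to 47.8%) at the third. Here the interval of the third group lay below the others. A smaller part of the third group than of the first lay on X. On X 69.8% of the members' CBP peaks were shared, against 46.2% on the other arms. The 3 groups were not compared on and off X, so the part of X in these shares was not tested.

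The members were long genes as a group, with a wide range. Their median length was 11278 bp (quartiles 2526.5 and 30034.5 bp), against 2859 bp (1421 and 6802.25 bp) for the other genes. The median rose with the number of CBP peaks on both sides of the threshold. It was 2671 bp with 1 peak, 6850 bp with 2, 9125 bp with 3, 16104 bp with 4 and 21361 bp with 5 or more. Members were 19.9% of the 196 genes of 20 to 50 kb and 18.1% of the 72 genes of 50 kb or more, but 2.58% of the 1084 genes under 2 kb. The longest were pum (3R) with 167939 bp, pyd (3R) with 103779 bp, bun (2L) with 90054 bp and sbb (2R) with 78197 bp. The pum gene, which codes for the RNA-binding repressor Pumilio, had CBP peaks at 8247, 10400 and 12611 bp and a SMARCAD1 peak at 20523 bp that overlapped none of them. The shortest were mir-276a (3L) with 22 bp, tRNA:CR32330 (3L) with 72 bp, tRNA:CR31885 (2L) with 74 bp and snoRNA:Me28S-C1237 (2L) with 100 bp. Median lengths were 26686.5 bp where every peak lay on the gene and 1471 bp where none did.

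**Figure D4:**
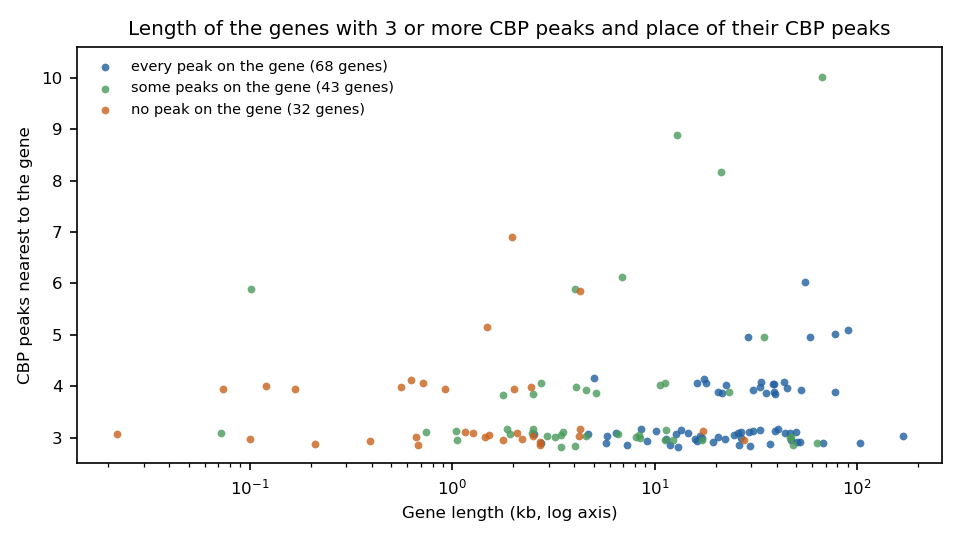
Number of CBP peaks nearest to each of the 143 genes against the length of the gene in kb on a log axis, 1 point per gene, spread slightly in height so that points can be told apart. Genes with every peak on the gene (68, blue) are mostly long, with a median of 26686.5 bp, and genes with no peak on the gene (32, orange) mostly short, with a median of 1471 bp.

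Many peaks of the short members lay on a longer gene whose start was farther away. Of the 197 CBP peaks of members that lay outside the gene they were assigned to, 127 touched another listed gene, 64.5% (57.6 to 70.8%). At 39 members, 3 or more of the CBP peaks lay on the same other gene, and 24 of these were among the 32 members with no peak on themselves. When peaks were counted by the gene they touched, whichever start was nearest, pnt had 13, of which 6 were nearest to its own start and 7 to that of CG4434. Eip75B, a nuclear receptor gene induced by ecdysone, is not among the 143 genes, but had 12 CBP peaks on it, 5 of CG32193, 6 of snoRNA:Me28S-A30 and 1 of CG42393. The bun gene, which codes for a TSC-22 protein, also had 12, 5 of its own, 4 of t-cup and 3 of CG17024. In this way 214 genes were touched by 3 or more CBP peaks, of which 79 were members and 135 were not.

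SMARCAD1 differed between these long genes. It had 4 peaks on pnt, 6 on Eip75B and 6 on bun, where 4, 4 and 8 of the CBP peaks were shared. On SNF4Agamma (3R), which codes for the gamma subunit of AMP-activated protein kinase and had 9 CBP peaks, 3 nearest to the member CG10824 and 3 to the member Snmp, there were also 9 SMARCAD1 peaks and 7 CBP peaks were shared. Those of CG10824, at -1233, 3523 and 8733 bp from its start, had SMARCAD1 peaks at -1433, 3605 and 8705 bp. On psq there were 8 CBP peaks, 5 of its own and 3 of CG11883, and a lone SMARCAD1 peak, with none shared. Other members whose peaks lay on a longer gene were snoRNA:Me28S-A576, with 4 on Eip74EF, which codes for an ecdysone-induced ETS factor, tRNA:CR31885, with 4 on tai, which codes for a co-activator of the ecdysone receptor, and CG33541, with 3 on fru. All 4 peaks of Su(Tpl) lay at the same time on Mi-2, which codes for a CHD remodeller. These longer genes were picked after their values were seen.

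**Figure D5:**
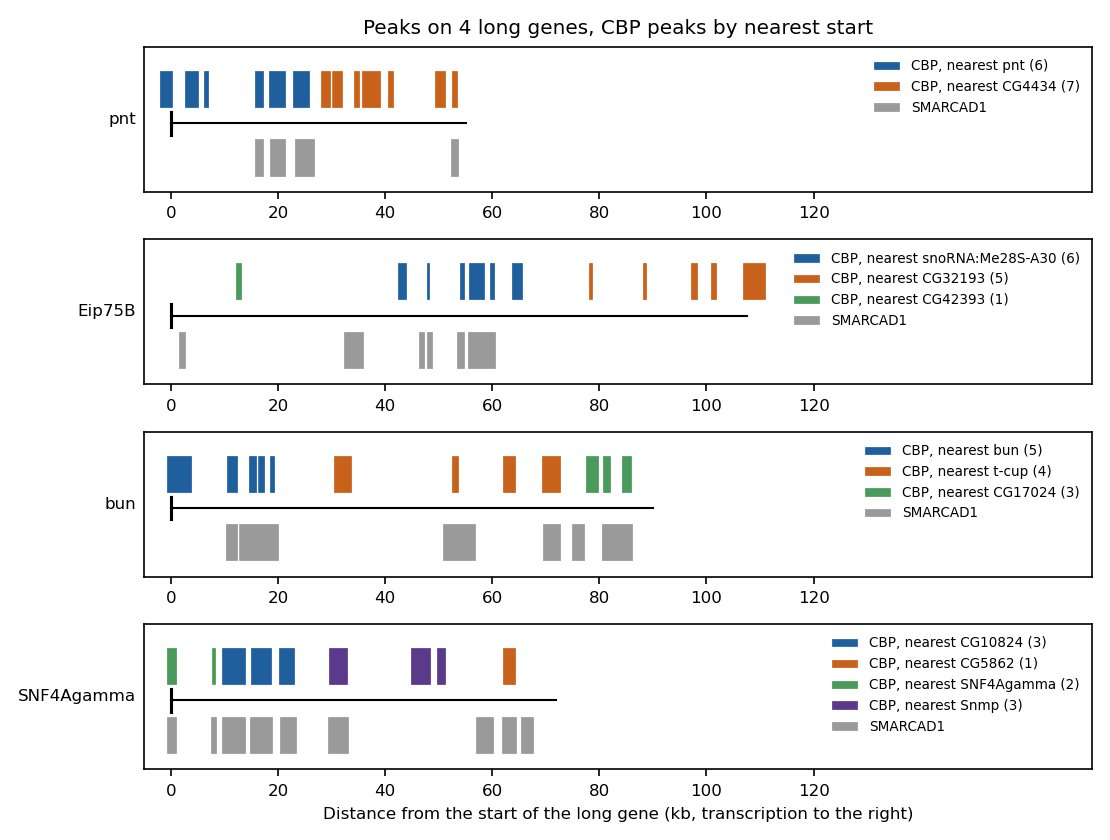
CBP peaks (coloured by the gene with the nearest start, number of peaks in brackets) and SMARCAD1 peaks (grey, below the line) on the 4 genes touched by the most CBP peaks, pnt, Eip75B, bun and SNF4Agamma, with the distance from the start of each in kb, transcription to the right. Each block spans the width of a peak and the line spans the gene. Of the 13 CBP peaks on pnt, 7 belong by nearest start to CG4434, and the far part of pnt has a lone SMARCAD1 peak.

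Neighbouring CBP peaks of a member were often close together. Between their edges, 372 gaps had a median of 1058.5 bp (quartiles 295.75 and 3635 bp) and reached from 0 to 44863 bp. A gap of 1000 bp or less was found 177 times, 47.6% (42.6 to 52.7%), against 49.7% (44.4 to 55.0%) for the gaps of genes with 2 CBP peaks. At least 1 such gap occurred at 114 members, and 26 had no larger one. When peaks with such a gap were merged, 60 genes were left with 3 or more, and ct still led with 7 while dm had 5. Of those 60 genes, 88.3% (77.8 to 94.2%) were nearest to a SMARCAD1 peak. A SMARCAD1 peak reached across 40 of the 177 short gaps, 22.6% (17.1 to 29.3%), and across 4 of the 195 longer ones, 2.05% (0.801 to 5.15%). In bun, for instance, a SMARCAD1 peak of 7662 bp covered the CBP peaks at 15208, 16865 and 18837 bp.

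The X chromosome held 44 of the 143 genes, 30.8% (23.8 to 38.8%), against 16.3% (14.9 to 17.7%) of the other genes, beside 17% over all. By number of CBP peaks, X held 15.3% (13.9 to 16.8%) of genes with 1 and 23.2% (19.1 to 28.0%) with 2. It held 35.2% (26.1 to 45.4%) of genes with 3, 18.9% (9.48 to 34.2%) with 4 and 33.3% (15.2 to 58.3%) with 5 or more. The interval of genes with 2 CBP peaks overlaps that of the members. Of the 60 genes left after merging, X held 26.7% (17.1 to 39.0%), an interval that overlaps that of the other genes. The other arms held 20 on 2L, 21 on 2R, 30 on 3L and 28 on 3R. Of the members on X, 43 of 44 were nearest to a SMARCAD1 peak, 97.7% (88.2 to 99.6%), against 69.8% (65.4 to 73.8%) of the other genes on X. On the other arms it was 81.8% (73.1 to 88.2%) of the members and 52.1% (50.03 to 54.1%) of the other genes. On X, 69.8% (62.3 to 76.3%) of the members' CBP peaks and 65.9% (61.8 to 69.7%) of the others' were shared. On the other arms 46.2% (41.0 to 51.4%) of the members' CBP peaks and 50.5% (48.5 to 52.4%) of the others' were shared. Sharing was thus higher on X in members and other genes alike, and the higher share of members with a SMARCAD1 peak was seen on X and off it. On X the starts of Rala, which codes for a small GTPase, and tlk, which codes for a Tousled-like kinase, were 389 bp apart on opposite strands. Each had 3 CBP peaks, all shared, and 4 SMARCAD1 peaks. No signal of the input library was used here.

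Of 17 lists of pathways and gene classes, the members included 4 of the 14 ecdysone response genes with a CBP peak, against 4.81% of all genes with a CBP peak. These were Eip93F, chinmo and vri, which code for transcription factors, and ftz-f1, which codes for a nuclear receptor, each with 3 CBP peaks. Eip93F had its CBP peaks at -10528, -7916 and 4918 bp, and both upstream ones were shared. At chinmo the CBP peaks were at -6832, 5550 and 16217 bp, and a SMARCAD1 peak over the start, at 1445 bp, overlapped no CBP peak. At vri, a clock factor, SMARCAD1 likewise covered the start at -237 bp without a CBP peak, and the CBP peaks at -7387 and 7127 bp were shared. At ftz-f1 the CBP peaks at -2645 and 7431 bp were shared and that at 16807 bp was not. In each of these 4 genes the CBP peaks lay off the start. Eip93F is 63075 bp long, chinmo 47373 bp, ftz-f1 46818 bp and vri 11350 bp. Members were 8.19% of genes of 10 to 20 kb, 19.9% of those of 20 to 50 kb and 18.1% of those of 50 kb or more. The 4.81% is thus not the share for genes of such lengths. No test was made of these counts, since the members were chosen from the same data.

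Signalling and growth lists had from 0 to 2 members each. Their shares are to be read beside the 4.81% over all genes, the few genes per list and the lengths of the genes. In the EGFR and Ras list, pnt and cic were members, 13.3% of 15 genes with a CBP peak, and in the insulin and TOR list dm and InR, 28.6% of 7. InR, the insulin receptor gene, had CBP peaks at 13496, 16615 and 19381 bp, and only that at 13496 bp was shared. The list of the blood cell lineage, from which S2 cells derive, had pnt and ush, 20% of 10. The ush gene, which codes for a GATA cofactor, had CBP peaks at -21366, -17560 and 618 bp, of which that at -17560 bp was not shared. Of the other pathway lists, JNK had msn, 11.1% of 9, Wingless sgg, 20% of 5, Dpp shn, 11.1% of 9, Hippo CG33967, called kibra in RefSeq, 12.5% of 8, and Toll and Imd Myd88, 7.69% of 13. The sgg gene, which codes for the kinase GSK3, had 3 CBP peaks, all shared, and kibra had 3 and no SMARCAD1 peak. JAK/STAT, Notch and Hedgehog had no member, of 5, 2 and 3 genes with a CBP peak.

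Developmental transcription factors had 5 members of 26 genes with a CBP peak, 19.2% beside 4.81% over all. They were ct, psq, sbb, CrebB-17A and SoxN, the last named outside the rule for named genes. The first of these, ct, is 66876 bp long, psq 58345 bp and sbb 78197 bp. Members were 18.1% of all genes of 50 kb or more. CrebB-17A, with 9125 bp, and SoxN, with 4046 bp, are shorter. CrebB-17A (X) codes for CREB, the factor after which CBP is named. It had CBP peaks at -68, 2245 and 4336 bp, and only that over the start, at -68 bp, was shared. SoxN had CBP peaks at -127, 5012 and 7411 bp and no SMARCAD1 peak. The shot gene (2R), which codes for a spectraplakin, had 5 CBP peaks inside it, of which those at 4951, 7451 and 22685 bp were shared. Adhesion and guidance had no member of 16, the proteasome none of 13 and the cytosolic ribosomal proteins none of 39. With 4.81% over all genes, lists of these sizes hold few members or none, and nothing is read from their counts of 0. In all, 22 members were in a list and 121 in none. By RefSeq, 129 of the 135 members that could be matched coded for proteins.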

How the data were processed

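ChIP-seq reads of S2 cells were mapped by the authors with BWA. Peaks were called for each antibody with MACS against a control, and genes were assigned with ChIPpeakAnno. The P value cutoff of that call was set by the authors and could not be varied here, so peak counts per gene rest on it. The deposited values are, per the file headers, positions, widths and distances in bp, with the relation of each peak to a gene. An entry marked as the nearest start was taken for each peak, and distances run from the start of the gene to the midpoint of the peak. Depth is unknown. Shares, Wilson 95% intervals, medians and gaps came from pandas 2.3.3, scipy 1.17.1 and numpy 2.4.6 under Python 3.11.15, and figures from matplotlib 3.10.9. The overlap function was tested on simulated peaks. Names, not positions, were taken from RefSeq.

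The members and the gene lists were chosen with earlier results of these data known. Named genes were those with 6 or more CBP peaks, up to 4 per list, and the 4 longest and 4 shortest. Also named were the 6 with most SMARCAD1 peaks and the 6 with most CBP peaks among genes nearest to no SMARCAD1 peak. Others, such as Mnt, SoxN, Rala, tlk and the long genes under the peaks, were picked after their values were seen. Peaks with no gene were left out. Alternatives were other thresholds, merged peaks, every entry, stricter overlap and the main chromosome arms alone. The result of a gene list is not reported here.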

Additional observations from a re-analysis of the deposited data

How the results depend on the processing

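The count of 143 genes depended most on how peaks were counted. It was 60 when CBP peaks with a gap of 1000 bp or less were merged, 80 when only peaks within 10000 bp of the start were counted, 294 when every entry was counted, and 483 and 52 with thresholds of 2 and 4 peaks. Merging at 200, 500 and 2000 bp, added after seeing the data, left 108, 83 and 39 genes. The share of members nearest to 3 or more SMARCAD1 peaks was 42.7% with every entry (4.98% of the other genes), 41.7% after merging and 42.3% with 4 or more CBP peaks. The share of the members' CBP peaks that were shared was 37.9% with an overlap of 50% of both peaks, 23.9% with midpoints within 200 bp and 32.8% with the central 500 bp of each peak. CBP peaks over the start, 15.9% of the members' peaks, were 10.7% when the midpoint had to lie within 500 bp and 12.8% at genes with 4 or more peaks. The median length was 16808.5 bp with 4 or more peaks and 18801.5 bp after merging, where the median gap was 3822.5 bp. In these combinations the cause of a change was not tested, except that merging removes the short gaps by construction. The members' share nearest to at least 1 SMARCAD1 peak stayed within its interval in the alternatives tried. With every SMARCAD1 entry counted it was 90.9%, and that of the other genes was 64.8%, against 54.9% by nearest start. No paired analysis was possible because there was 1 library per antibody and no test was made. Motifs in promoters were not run, since no sequence was used here.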
